A study of Mus musculus with 11 samples.

Results

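Iron enters, is stored in and leaves cells through a small set of proteins, and the chromatin at 10 of their genes was examined in mouse MPC2 cells. The genes were Tfrc, Tfr2 and Slc11a2 for uptake, Fth1 and Ftl1 for storage, Hmox1 for release of iron from heme, Slc40a1 and Hamp for export and its control, and Ireb2 and Aco1 for sensing. Members were named genes, and their regions were all accessible regions that overlapped the annotated gene (GENCODE M21) from 20 kb upstream of its start to 20 kb past its end. That rule gave 57 regions out of the 94963 in the list. It used no accessibility value.

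The MPC2 cells are mouse mesenchymal progenitors immortalised conditionally, and the labels give them as 1 clone (clone 2). Accessibility was profiled by ATAC-seq, in which Tn5 transposase cuts and tags open chromatin, in 11 cultures. Vehicle (DMSO) was given to 3 undifferentiated cultures (MSC) and 2 osteocyte cultures, and FG-4592 at 50 uM to 3 of each stage. Treatment lasted 48 hours, and osteocyte cultures had been differentiated for 3 weeks first. FG-4592 (Roxadustat) inhibits the HIF prolyl hydroxylases, enzymes that need iron as a cofactor, so that HIF is stabilised in normal oxygen. The study asked how such mimicked hypoxia changes chromatin in both stages. The list holds 1 level per region, read as the average log2 CPM of Tn5 cuts over all samples, and no value per culture. For this reason groups were not compared, values have no replicate error, and the depth per culture was unknown. The order of levels below therefore carries no statement on which neighbours differ beyond their spread.

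Cells control iron mainly after transcription. Iron regulatory proteins, encoded by Aco1 (IRP1, which is the cytosolic aconitase when it holds an iron-sulphur cluster) and Ireb2 (IRP2, which is degraded when iron is plentiful), bind hairpins called iron responsive elements (IREs) in messenger RNAs. Binding in a 5′ UTR blocks translation, as in ferritin, and binding in the 3′ UTR stabilises the transferrin receptor message. Transcription is controlled as well. HIF acts through hypoxia response elements (HREs) with the core ACGTG or GCGTG, and NRF2 and its competitor BACH1, each paired with a small MAF protein, bind the antioxidant response element of ferritin and heme oxygenase genes.

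The sequences shown first are the 9-base elements GCTGAGTCA or GCTGACTCA, the form that CNC factors such as NRF2 and BACH1 bind together with a small MAF. Such an element was present in 5 of the 57 regions, with 7 matches in all, against 4.56% of all regions. It contains an AP-1 match (TGAGTCA or TGACTCA), so letters alone cannot tell which family binds. All 7 are shown on the strand of the gene, with the element in capitals and mm10 coordinates. The first stretch, chr8:75083939-75084024, is intergenic and lies upstream of Hmox1. The second, chr8:75089740-75089768, lies between it and Hmox1. The stretch chr19:9978630-9978658 is upstream of Fth1, and chr7:45460969-45460997 is upstream of Ftl1. The last, chr15:100389089-100389117, is coding sequence in exon 17 of Slc11a2.
Hmox1 far upstream: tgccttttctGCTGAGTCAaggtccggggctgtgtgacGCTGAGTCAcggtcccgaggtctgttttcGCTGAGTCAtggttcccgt
Hmox1 near upstream: gacagattttGCTGAGTCAccctctgttc
Fth1 upstream: ggagcagaatGCTGAGTCAcggtggaaca
Ftl1 upstream: gagctcagcgTGACTCAGCagaactggcc
Slc11a2 exon 17: caccgtggatGCTGACTCAgtggtgtcca

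The far upstream stretch of Hmox1 held the most elements of any member region. Its 3 copies start 28 and 29 bp apart and span 66 bp. With this near-equal spacing and similar bases after each copy, they may belong to a short, imperfect tandem repeat. Whether they are separate occurrences was not tested. Across the whole list, 0.0137% of regions (13 of 94963) held 3 or more elements, and by level this region ranked 3 among the 13. That share counts every match and makes no allowance for repeats, so it does not show how rare separate elements are. At the other 4 regions of the members the element was single. Outside promoter regions, 4 of 32 member regions (12.5%) held the element against 4.84% of the 73426 such regions in the list.

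Most of the 10 genes had an accessible promoter. A promoter region is one that overlaps the 1000 bp on either side of an annotated transcript start of the gene, and the promoter level is the highest level among these. Such a region was found for 9 of the 10 genes, against 64.1% of all 21938 protein-coding genes. Hamp had none. The median promoter level was 5.40 log2 CPM for the 9 genes and 5.03 for coding genes (quartiles 3.84 and 5.75). Since a wider region collects more cuts, levels were also taken per kb of width, which gave medians of 5.20 for the iron genes and 4.75 for coding genes. In descending order of promoter level the genes were Aco1 (7.82), Fth1 (6.10), Ftl1 (5.78), Slc11a2 (5.48), Ireb2 (5.40), Tfrc (5.26), Hmox1 (4.75), Slc40a1 (4.19) and Tfr2 (3.65). Aco1 was highest, and Tfr2 and Slc40a1 were at the low end. The CpG content of a start bears on this readout, because 91.7% of CpG-rich coding genes had a promoter region against 46.1% of the others. By that measure 5 members were CpG-rich (Tfrc, Slc11a2, Fth1, Slc40a1 and Ireb2), against 39.4% of coding genes. Levels differed as well, with a median promoter level of 5.40 log2 CPM for CpG-rich coding genes and 4.31 for the others.

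**Figure D1:**
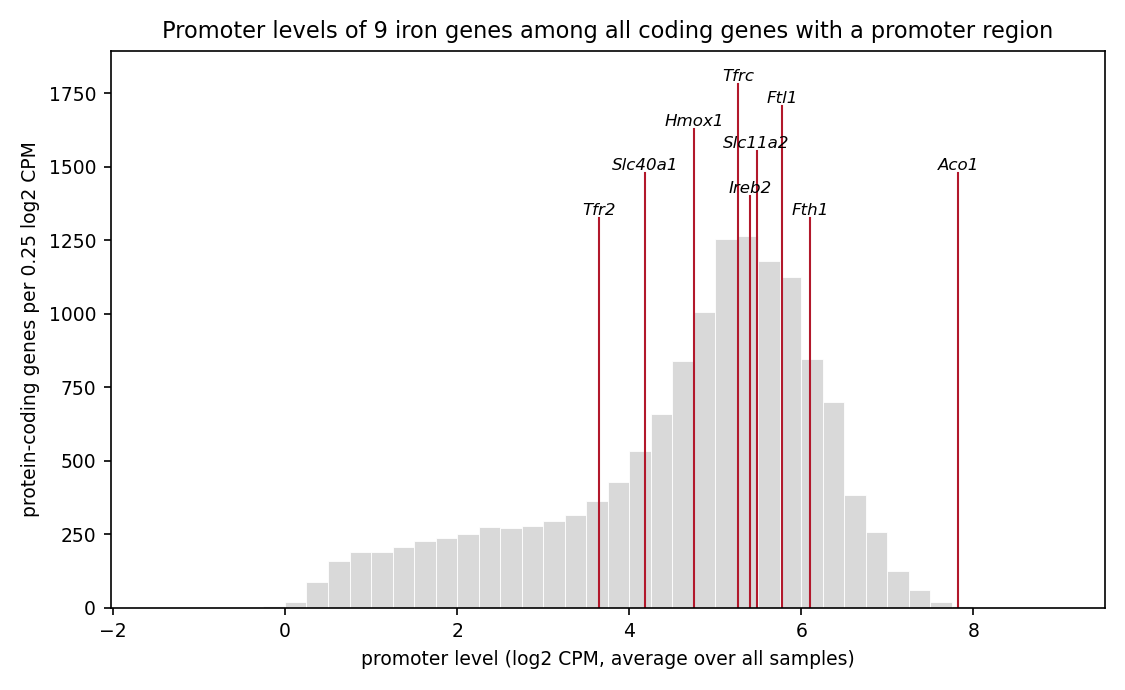
Promoter level (x axis, average log2 CPM over all samples) of the 14058 protein-coding genes with a promoter region, as grey bars counting genes per bin (y axis), with a red line for each of 9 iron genes. Aco1 (7.82) lies at the right edge of the distribution, whereas Tfr2 (3.65) and Slc40a1 (4.19) lie below its median of 5.03.

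The number of regions per gene varied more. For comparison, windows were drawn the same way around all coding genes with a length within 20% of that of the member. More regions than the median of these genes were found at 5 of the 10 loci (Slc11a2, Fth1, Ftl1, Hmox1 and Aco1), against 45.8% of all coding genes counted in the same way, so that as a group the iron genes were close to the background. The ferritin genes were at the upper end of their comparison. Ftl1 had 9 regions where the median was 3, more than 96.8% of 602 genes, and Fth1 had 8 where the median was 3, more than 92.6% of 1598 genes. At the lower end, Ireb2 had 2 regions where the median was 5, and 77.0% of genes of similar length had more. The windows take in promoters of neighbours, and 13 of the 57 regions lay at starts of other genes and not of the member. Of the remaining 44, 12 were promoter regions of the members themselves (3 of these, 1 at Slc11a2 and 2 at Ftl1, also lay at a start of another annotated gene), 12 lay in exons or introns of the member, 7 lay inside another coding gene and 13 were intergenic.

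**Figure D2:**
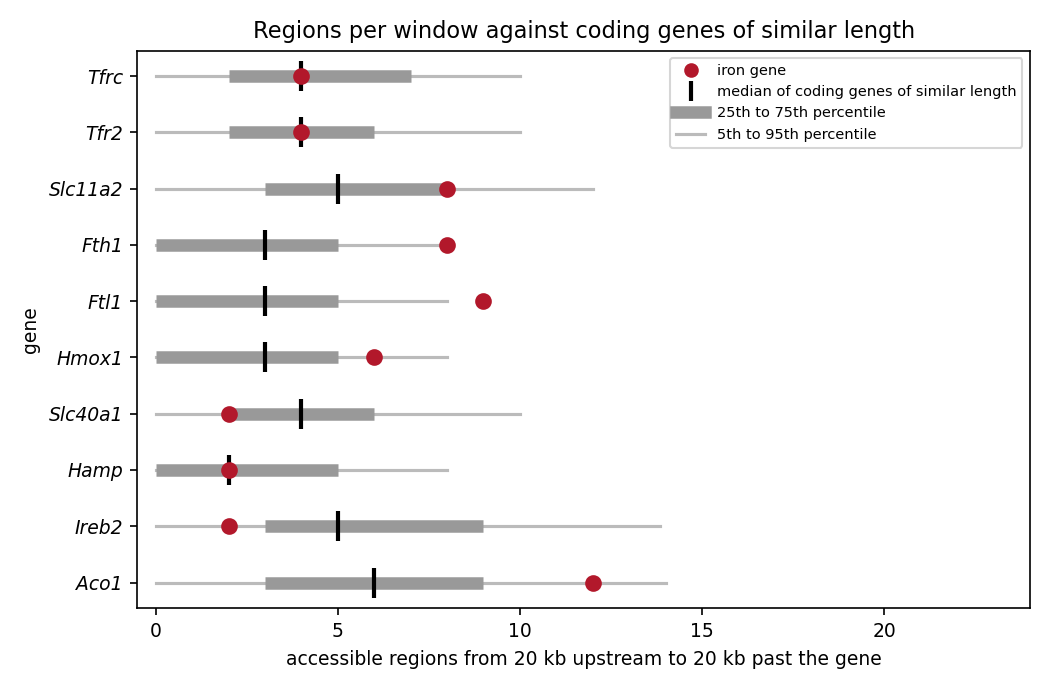
Accessible regions in the window of each iron gene (red points, x axis) against coding genes of a length within 20%, with the median as a black tick, the 25th to 75th percentile as a thick bar and the 5th to 95th percentile as a thin line. Ftl1 with 9 regions lies beyond the 95th percentile of 8, and Fth1 with 8 lies on it.

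**Figure D3:**
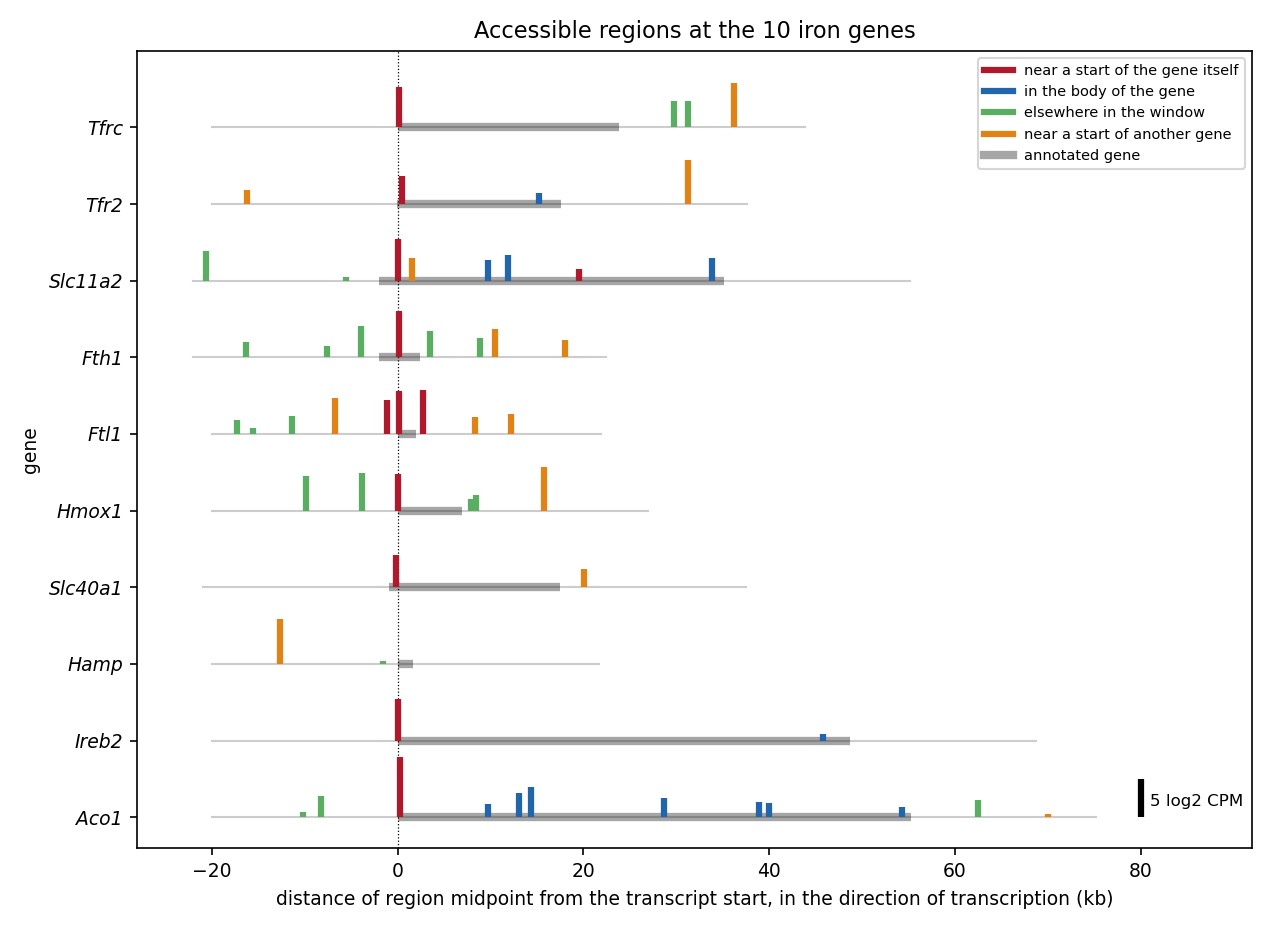
Accessible regions at the 10 iron genes by distance of their midpoint from the reference transcript start (x axis, kb, positive in the direction of transcription), with 1 row per gene. Bar height gives the level in log2 CPM from 0 upwards with a scale bar at the lower right, colour gives the position of the region, the thick grey line is the gene and the thin line the 20 kb on either side. Tall bars lie upstream of the start at several genes, for example Hmox1, Fth1, Ftl1 and Hamp (at Hamp the promoter of Usf2). The Aco1 promoter bar is the tallest.

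Among the uptake genes, Tfrc encodes transferrin receptor 1, which brings transferrin-bound iron into most cells. The gene (chr16:32608920-32632794, plus strand) had 4 regions, as many as the median of genes of similar length. Its standing depended on the window, with 14 regions against a median of 8 at 50 kb on either side and 1 against 3 when the window stopped at the gene end. Its promoter region, chr16:32608398-32609806, covered the 5′ UTR of exon 1 and the start of intron 1 with a level of 5.26 log2 CPM (38.4 CPM), higher than 58.1% of coding promoters. Chromosome 16 as a whole had a median coding promoter level of 5.60, and Tfrc was above only 41.5% of the promoters there. Regions of 3.46 (chr16:32638459-32638984) and 3.41 log2 CPM lay past the gene end, and the last region was the promoter of Tnk2. No region lay inside the gene beyond intron 1.

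The Tfrc promoter region was the richest in HRE cores among the promoter regions of the 10 genes. It held 11 sites, counting overlapping matches as 1, which was more than 97.9% of the 5530 promoter regions whose width differed by at most 20%. The 150 bases before the start, chr16:32608770-32608919, hold 3 of them and are shown because the site nearest the start (24 bp upstream) reads ACGTG. Capitals mark the cores on either strand.
Tfrc promoter: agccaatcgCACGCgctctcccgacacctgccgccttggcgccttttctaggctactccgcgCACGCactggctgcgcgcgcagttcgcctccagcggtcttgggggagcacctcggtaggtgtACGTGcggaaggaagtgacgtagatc
A further site 392 bp into the gene reads CACGTG, which is an E-box as well as an HRE core. The remaining 7 sites lay within the first exon and intron. Both forms of the HRE core contain CG, and the Tfrc start is CpG-rich. The comparisons of HRE cores by width, here and below, were not matched for CpG content.

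Tfr2 encodes transferrin receptor 2, an iron sensor of hepatocytes and erythroid precursors. Its promoter region, chr5:137569645-137570966, had the lowest promoter level of the 9 genes, 3.65 log2 CPM, higher than 23.0% of coding promoters and, per kb of width, than 13.3%. The other region in the gene was a weak one in intron 19 (chr5:137584899-137585280) with 1.49 log2 CPM. The remaining 2 regions were the promoters of Actl6b (1.86) and Mospd3 (5.77), the latter holding 74.2% of the summed CPM in the Tfr2 window.

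Slc11a2 encodes DMT1, the transporter that moves ferrous iron across the apical gut membrane and out of endosomes. At this gene (chr15:100387898-100425072, minus strand) 8 regions were listed, and 74.4% of similarly long genes had fewer. At the start, the region chr15:100422462-100423554 reached 5.48 log2 CPM and contained 7 HRE cores, more than 90.7% of promoter regions of similar width, and it also covers the start of the divergent gene Gm5475. Inside the gene, intron 2 held a region of 3.32 log2 CPM with 4 HRE cores, more than 97.9% of non-promoter regions of similar width. All 4 lie in copies of 1 short tandem repeat, so they are not separate occurrences. Intron 1 held a region of 2.64 log2 CPM with 2 cores. The region with the CNC-Maf element covered intron 16 and exon 17 with 3.02 log2 CPM. The highest of its regions outside promoters, chr15:100443272-100444054, was intergenic, 20608 bp upstream of the reference start, with 3.82 log2 CPM. A second, weak promoter region of 1.52 log2 CPM lay over intron 9 at the start of a shorter annotated transcript.

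Storage is represented by the subunits of ferritin, the shell that holds iron as a mineral. Fth1 encodes the heavy chain, which oxidises ferrous iron as it enters. The promoter region of Fth1, chr19:9982237-9983397, had a level of 6.10 log2 CPM (68.5 CPM), higher than 85.4% of coding promoters, and held 54.1% of the CPM in its window. It covered the 5′ UTR, the coding part of exon 1 and the start of intron 1. Upstream, chr19:9978387-9979002 (midpoint 3951 bp before the start) carried the CNC-Maf element shown above with 4.14 log2 CPM, a level above 93.3% of all non-promoter regions and 96.9% of those of similar width. Weaker regions of 1.48 and 1.98 log2 CPM lay farther upstream, and the one with 1.48 shared 54.7% of its 31-base words with other places in the genome, so its reads may not map to it alone. The other 4 regions lay in the neighbour Best1 or at its starts.

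Ftl1 encodes the light chain of ferritin, which supports mineral growth in the shell. The region over its start, chr7:45459219-45460316, had 5.62 log2 CPM, and of its 31-base words 23.4% occur elsewhere in the genome, so that its level is less certain than those of the other promoters. For the Fth1 start region that share was 0.177%. The highest promoter level assigned to Ftl1, 5.78, came from chr7:45456459-45457872, a region past the gene end that lies within 1000 bp of the start of a short retained-intron transcript and inside Gys1. Upstream of the gene, chr7:45460804-45461271 carried the CNC-Maf element with 4.38 log2 CPM, a level above 57.3% of all promoter regions and 98.7% of those of similar width. These 3 regions together held 72.3% of the CPM in the window. Of the others, 3 were at starts of Gys1 and Bax, and 3 weak ones lay inside Dhdh with levels from 0.79 to 2.34, the highest at chr7:45470995-45471423.

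Hmox1 encodes heme oxygenase 1, which opens the heme ring and frees its iron, and it is a classical target of NRF2, BACH1 and HIF. At this gene (chr8:75093621-75100589, plus strand) 6 regions were listed, and 75.8% of similarly long genes had fewer. Its promoter region, chr8:75093176-75094112, had 4.75 log2 CPM, higher than 41.6% of coding promoters. Upstream, the near region, chr8:75089178-75090317, had 4.86 log2 CPM with its midpoint 3873 bp before the start, and the far one, chr8:75083360-75084252, had 4.57 with its midpoint 9815 bp before the start. These levels were above those of 97.6% and 96.3% of all non-promoter regions, and of 86.3% and 91.1% of non-promoter regions of similar width. The far region also held 5 HRE cores, more than 98.6% of non-promoter regions of similar width, where the promoter region held 2. Some of these sequences are not unique, since 11.2% of the 31-base words of the far region and 10.6% of those of the promoter region occur elsewhere. Past the gene end lay weak regions of 1.47 and 2.00 log2 CPM and the promoter of Mcm5 (5.68).

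Slc40a1 encodes ferroportin, the known exporter of ferrous iron from cells. Its window held 2 regions where genes of similar length had a median of 4, and 70.8% of them had more. The gap depended on the setting, with 8 regions against a median of 9 at 50 kb on either side. Among regions at least 500 bp wide it was 2 against 2. The promoter region, chr1:45925118-45926269, had 4.19 log2 CPM, higher than 29.8% of coding promoters and 16.4% of CpG-rich ones. It held none of the HRE cores, a feature of 7.76% of promoter regions of similar width. It also held no AP-1 match, no antioxidant response core (TGACNNNGC), no CNC-Maf element and no match to the metal response element core (TGCACNC or TGCGCNC), as do 83.9%, 58.5%, 96.7% and 26.2% of promoter regions of similar width, respectively. The other region lay at the start of the processed pseudogene Gm18303, past the gene end, with 2.37 log2 CPM. Thus no region was listed within the gene beyond its first intron, or upstream.

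Hamp encodes hepcidin, the liver hormone that triggers ferroportin degradation. It was the only member without a promoter region. The nearest region, chr7:30945532-30945731, was 200 bp wide, the minimum in the list, with its midpoint 1600 bp upstream of the start inside the neighbour Usf2 and a level of 0.34 log2 CPM (1.26 CPM). The other region in the window was the promoter of Usf2 with 5.89 log2 CPM, holding 97.9% of the summed CPM. Of 6 genes typical of liver, 1 (Apoa1, 2.91) had a promoter region.

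**Figure D4:**
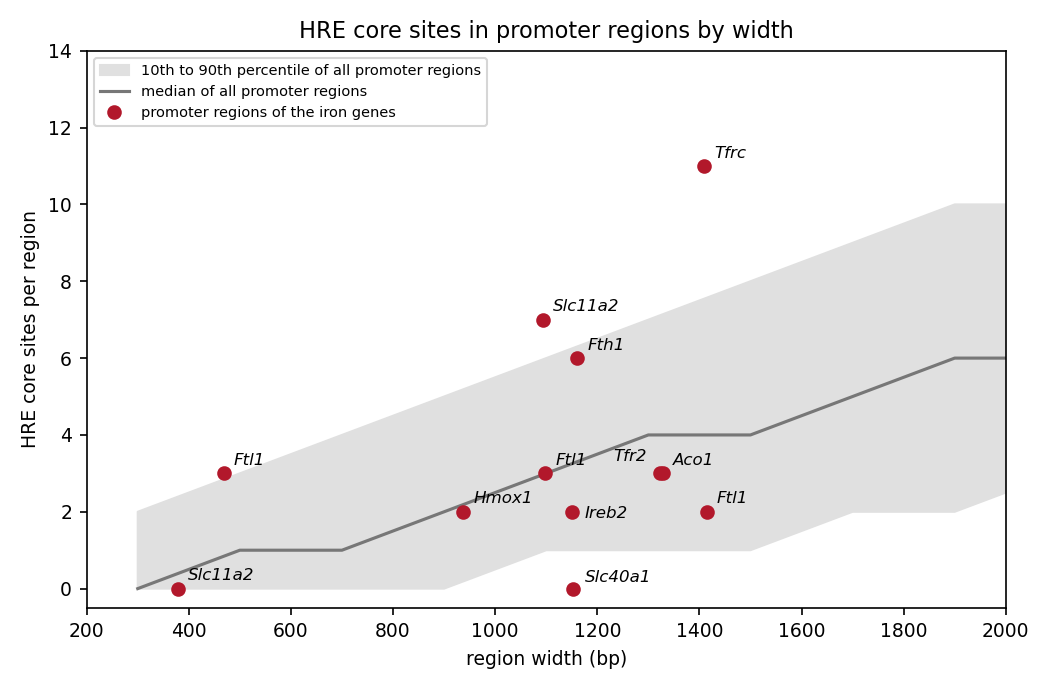
HRE core sites (y axis) against width in bp (x axis) for the 12 promoter regions of the iron genes (red points, labelled by gene), with the median (line) and the 10th to 90th percentile (band) of all promoter regions in bins of 200 bp. Tfrc with 11 sites and Slc11a2 with 7 lie above the band and Slc40a1 with 0 sites lies below it. CpG content was not matched.

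Of the sensing genes, Aco1 had the highest promoter level. The region chr4:40142709-40144036 covered the start, the 5′ UTR of exon 1 and part of intron 1 with a level of 7.82 log2 CPM (226 CPM). It ranked 7 among all 94963 regions, and 3 when levels were taken per kb of width. The level was higher than 99.9% of coding promoters. Only 0.385% of its 31-base words occur elsewhere in the nuclear genome and 0 in the mitochondrial genome, so repeated sequence was nearly absent there. It held 3 HRE cores, more than 31.2% of promoter regions of similar width, and no CNC-Maf element. The window held 12 regions, and 86.4% of similarly long genes had fewer. Of these, 7 lay in the gene, the highest a region of 3.99 log2 CPM in intron 1 (chr4:40156706-40158245), its midpoint 14395 bp past the start. The promoter held 79.5% of the CPM in the window, so the other 11 regions shared the rest.

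Ireb2, the other sensor, differed from Aco1 in both measures. Its promoter region, chr9:54863271-54864420, had 5.40 log2 CPM, higher than 63.0% of coding promoters, and held 96.0% of the CPM in the window. The other region, chr9:54909499-54909729, was weak (0.83 log2 CPM) and lay over intron 21 and exon 22.

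The IREs themselves were looked for as a pattern in annotated UTRs, a C followed by 5 bases, then CAGTG, then A, C or T, then 5 bases that pair with the first 5. At least 1 match was found in 4 of the 10 genes, against 0.563% of 21853 coding genes (123 genes). The pattern is strict and allows no unpaired base among the 5 on either side. Elements of another form are missed, so a gene without a match may still hold one. These RNA elements are shown together with their place in the gene and whether a listed region overlaps them. They are written as DNA on the gene strand with CAGTG and the base after it in capitals, and the Tfrc elements are in the order they have along the message.
Fth1: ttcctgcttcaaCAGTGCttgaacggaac
Ftl1: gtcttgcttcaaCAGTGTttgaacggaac
Slc40a1: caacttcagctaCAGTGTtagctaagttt
Tfrc IRE 1: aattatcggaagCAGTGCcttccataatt
Tfrc IRE 2: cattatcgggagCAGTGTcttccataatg
Tfrc IRE 3: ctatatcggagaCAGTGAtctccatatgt
Tfrc IRE 4: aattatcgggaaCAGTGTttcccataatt
The elements of Fth1 (chr19:9982738-9982754), Ftl1 (chr7:45459785-45459801) and Slc40a1 (chr1:45925471-45925487) are in the 5′ UTR and lay inside the promoter regions described above. The 4 matches found in Tfrc (chr16:32631225-32631732 from first to last) are in the 3′ UTR of the final exon, where no region was listed. Over all coding genes, 21 of 126 matches (16.7%) lay in a region.

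The other motifs were counted over the same 57 regions. HRE cores were present in 36 regions (63.2%) with 106 sites, against 46.2% of all regions. The metal response element core was present in 24 (42.1% against 32.6%) and the antioxidant response core in 18 (31.6% against 24.5%). The AP-1 match was present in 13 (22.8% against 22.1%) and the E-box CACGTG in 7 (12.3% against 9.16%). Promoter regions hold more HRE cores than others, and by that split 17 of 25 promoter regions (68.0%) held a core against 72.3% in the list, whereas 19 of 32 other regions (59.4%) did against 38.6%. Width differs between these sets, and per kb of sequence the non-promoter regions held 2.13 cores against 1.16 in the list. The member value includes the 4 cores in the tandem repeat of Slc11a2 intron 2. By the same split of regions, the metal response element core was in 56.0% of promoter regions against 56.8% in the list. In other regions it was in 31.25% against 25.4%, and per kb they held 0.65 against 0.68. The antioxidant response core was in 40.0% against 33.0% of promoter regions and in 25.0% against 22.0% of other regions. A match describes letters in the sequence and was not tested for binding.

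Of 55 further iron genes, 47 had a promoter region (85.5%, against 64.1% of coding genes and 91.7% of CpG-rich ones), with a median level of 5.08 log2 CPM, close to the coding median of 5.03. The highest were Nfe2l2, which encodes NRF2 (7.08), the mitochondrial iron importer Slc25a28 (7.07) and the heme-hemopexin receptor Lrp1 (6.97). The lowest were the metalloreductases Steap4 (1.33) and Cybrd1 (1.91) and, between them, the hepcidin inducer Bmp6 (1.79). The 8 without one were Lcn2, Ftmt, Hephl1, Hamp2, Hfe2, Tmprss6, Alas2 and Slc25a37. Most genes of every class had one. The counts were 11 of 12 for uptake and trafficking, 5 of 6 for storage, 4 of 5 for export and 4 of 4 for sensing. For systemic control they were 8 of 11, for heme 8 of 9 and for mitochondria 7 of 8. BACH1, the repressor that shares the CNC-Maf element with NRF2, had a promoter level of 6.55 at its gene Bach1, and Keap1, which targets NRF2 for degradation, had 4.74.

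The cell type was checked in the same list. Promoter regions were present at 12 of 16 mesenchymal and bone genes, with a median level of 4.65 log2 CPM and a range from 2.33 (Alpl) to 6.14 (Pdgfra), and absent at Sost, Mepe, Phex and Pdpn. Of the genes typical of osteocytes, Dmp1 had one (4.41). They were also present at 4 of 7 blood genes, namely Klf1 (4.76), Spi1 (3.38), Tal1 (3.16) and Csf1r (2.69), but not at Ptprc, Gata1 or Cd3e. Of 4 endothelial genes Pecam1 (1.89) and Kdr (1.16) had one, and of 6 liver genes Apoa1 alone. The median levels were 3.27 for blood and 1.52 for endothelial genes, below that of the bone genes. The bone and blood ranges overlapped, and both shares lie near the 64.1% of all coding genes, whose median level was 5.03. With 1 pooled value per region, a region open in some cultures only and one weakly open in all cannot be told apart.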

How the data were processed

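ATAC-seq reads were, per the methods and the labels, trimmed, aligned to mm10 with Bowtie2, freed of duplicates with Picard 2.17.8 and used for peak calling with MACS2 2.2.7.1. The authors merged peaks, removed blacklisted regions, counted Tn5 cuts per region, dropped regions with few cuts, normalised by TMM and used edgeR 3.24.3. A read shift for Tn5 was not given in the sources used here, and merging widens regions that several libraries share. The deposited value was read as average log2 CPM because 460 regions fell below 0 and 2 to the power of the values summed to 1012760. Depth per sample was unknown, so no interval was given.

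Coordinates are mm10, 1-based. Genes came from GENCODE M21, sequences from the RefSeq GRCm38 assembly. Reference starts are those of the transcript with the longest coding sequence. CpG-rich means GC of at least 55% and observed over expected CpG of at least 0.6 within 500 bp of the start. Motifs were counted on both strands. Similar width or length means within 20%. The genes, lists and motifs were chosen with earlier results of these data known. All members were named, with their own promoters and highest region outside promoters, and of the further iron genes the 3 highest, the 3 lowest and those without a promoter region. Bach1 and Keap1 were picked after their values were seen. Counting and motif search were tested on simulated data. Alternatives changed windows, widths, levels, starts and comparison genes. Python 3.11.15 was used with numpy 2.4.6 and pandas 2.3.3.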

Additional observations from a re-analysis of the deposited data

How the results depend on the processing

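No paired analysis was possible because each region has a single value pooled over all samples, and for the same reason no sample could be left out and no other count model was run. The planned comparisons of FG-4592 with vehicle and of osteocytes with MSCs were not run. Of 36 values under alternative settings, 30 were the same by a tolerance of 1.5 times for counts and of no change for the median level. Windows of 50 kb raised the regions from 57 to 122 and those other than promoters of neighbours alone from 44 to 87, and regions at least 500 bp wide lowered them to 33 and 25, in each case by construction. The median promoter level was 5.33 with 2000 bp around starts, where Hamp gained its region of 0.34 log2 CPM (10 of 10 genes), and 5.20 per kb. Genes above their comparison median numbered 5 to 7. Slc11a2, Fth1, Ftl1, Hmox1 and Aco1 were above it under each setting run, whereas Tfrc was above it with 50 kb, with regions at least 500 bp wide and with levels of at least 2, Tfr2 with 50 kb, and Hamp with windows that stopped at the gene end. The use of reference starts alone was added after the data had been seen and left both promoter values as reported.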
